A study of Homo sapiens with 18 samples.

Results

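The respiratory chain of the mitochondrion is built from subunits encoded in the nucleus and from a small set encoded in mitochondrial DNA. Complex I passes electrons from NADH to ubiquinone and complex II passes them from succinate. Complex III hands them to cytochrome c, complex IV hands them to oxygen, and complex V uses the proton gradient that complexes I, III and IV build to make ATP. Most of the nuclear subunits are small proteins made from short, abundant mRNAs, and melanoma lines are known to differ widely in how much of this machinery they express.

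The nuclear oxidative phosphorylation genes were taken by symbol from an RNA-seq table of 26475 genes. A row was a member if its symbol was NDUF followed by A, B, C, S or V and a number, SDHA to SDHD, or began with UQCR, COX4 to COX8 or ATP5. The rule used no measured value and found 88 genes, with 37 assigned to complex I, 4 to complex II, 10 to complex III, 17 to complex IV and 20 to complex V. Symbols are the older ones of the table, so that ATP5B, for example, is the gene now called ATP5F1B. By annotation, 86 of the 88 were protein-coding, and UQCRBP1 and ATP5EP2 were processed pseudogenes of UQCRB and ATP5E. The rule also took in NDUFA4, which is now placed with complex IV, the supercomplex factor COX7A2L, ATP5S and ATP5SL, which are not core subunits, the read-through gene ATP5J2-PTCD1, and the copies UQCRHL and ATP5L2. Reads of UQCRB and UQCRBP1, of UQCRH and UQCRHL, of ATP5E and ATP5EP2, of ATP5L and ATP5L2, and of the read-through gene and the genes it spans can be split between rows, so these values are uncertain. None of the subunits encoded in mitochondrial DNA was analysed here.

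The libraries came from Mel92.1 and MP41, both lines derived from melanoma of the uvea, and each was treated for 48 h with DMSO as vehicle or with an inhibitor, UNC0642 or A366, at 1 μM. Both compounds inhibit the histone methyltransferase EHMT2, also called G9a, and no genotype differed within a line. There were 6 groups of 3 libraries, 18 in all. The deposited protocol gives the same RPMI medium and serum share for both lines, while the study's methods give a higher serum share for MP41, so that line and medium cannot be told apart. Each line stands for the tumour of 1 donor, and the difference between the lines is therefore that between 2 tumours as well as between 2 lines. The submitters call the replicates biological, but nothing says whether they were separate cultures or days, so p-values measure the spread between these libraries.

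Before any result, 4 libraries went against their labels. Those labelled A366 replicates 2 and 3 of either line carried the transcripts of the other line. Over 20 genes expressed only in Mel92.1 among the DMSO libraries, the 3 A366 libraries placed with Mel92.1 held 95.2 to 110% of the DMSO level and the 3 placed with MP41 held 0.0124 to 0.0348%. Over 21 genes expressed only in MP41, the libraries placed with MP41 held 115 to 123% and those placed with Mel92.1 held 0.0159 to 0.0285%. The 4 libraries were exchanged between the lines, as the study's own listing of the libraries also has them. The main counts of calls with A366 are given again as labelled or without the 4, and values of single genes only in places. As labelled, the A366 groups mix the lines, so those values also hold the difference between the lines. In the lists of A366 values below, the first library is the one labelled with the line it was placed in.

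Libraries held 23601156 to 62941462 counts, with ribosomal RNA at 3.31 to 32.8% of them. After ribosomal RNA was set aside, the 88 genes took 1.10 to 1.503% of the counts. Melanocyte markers were high in every library, with summed levels of 22007 to 22413 CPM (counts scaled to library size) in Mel92.1 and 14999 to 15214 CPM in MP41 with DMSO, although DCT stood at 1.36 to 2.91 CPM in Mel92.1. Of the 15 markers of other cell types, CD3E, KRT5, CDH5 and HBB were at or near 0, and the summed level of the list was 21.1 to 108 CPM, most of it NCAM1 and COL1A1. In bulk RNA, fewer cells of a kind and less RNA per cell cannot be told apart. EHMT2 itself was measured at 95.97 to 101.8 CPM in MP41 with DMSO and at 115.9 to 118.5 CPM with A366. The log2 fold change was 0.23 (SE 0.06, adjusted p = 0.00936).

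The genes that code for the complexes are known to be driven in many cell types by factors that bind close to their start sites, among them NRF1, ETS family factors such as GABPA, and YY1. Promoter windows were read from RefSeq (GRCh38.p14), from 250 bases before to 50 after the start, for the 68 members that matched. The letters searched were GCGCATGC for NRF1, CCGGAAG for the ETS family, AAGATGGCG for YY1 and TATAAA for the TATA box, on both strands, and no member had sites of different motifs that overlapped. The NRF1 letters stood in 13 of 68 members (19.1%), against 3.27% of 27305 windows and 5.31% of the windows of 10588 other protein-coding genes tested in MP41. The ETS letters stood in 19 (27.9%, against 10.7% and 18.4%) and the YY1 letters in 8 (11.8%, against 1.85% and 3.83%). The TATA letters stood in 7 (10.3%), against 3264 of the 27305 windows and 5.68% of those of tested genes. In all, 30 members held at least 1 of the letters of the 3 factors, 38 held none of them, and 6 held both the NRF1 and the ETS letters. These are matches of letters, not bound sites.

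Stretches of 30 bases around the NRF1 letters are shown for the 3 holders with the largest and the 2 with the smallest change with A366 in MP41, to let the sequences be set beside the values that follow. Capitals mark a single match of the motif, on either strand, and each stretch reads 5′ to 3′ along the gene. In ATP5C1 a match on the other strand overlaps the marked letters and is partly in small letters.
NDUFS7, chr19:1383823-1383852, plus strand: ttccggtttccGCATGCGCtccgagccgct
COX6A1, chr12:120437928-120437957, plus strand: ggaggtgcagaGCGCATGCtctctcttgcc
COX5B, chr2:97645915-97645944, plus strand: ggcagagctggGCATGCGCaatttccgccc
ATP5C1, chr10:7788144-7788173, plus strand: ggggagcttcgGCGCATGCgcgctgaggcc
SDHB, chr1:17054214-17054243, minus strand: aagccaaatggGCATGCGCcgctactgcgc

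The same choice for the ETS letters gave the following stretches, and SDHB appears in both sets.
COX8A, chr11:63974591-63974620, plus strand: cagctccagaaCTTCCGGccagcgcagcca
NDUFA13, chr19:19516204-19516233, plus strand: tccgcccgggaCCGGAAGtgtgggatactg
UQCR11, chr19:1605561-1605590, minus strand: tccaaccctcgCCGGAAGttactgtaagtg
SDHB, chr1:17054142-17054171, minus strand: cacccgggaaaCCGGAAGccgcctcccact
NDUFS1, chr2:206159583-206159612, minus strand: ggctggggccaCTTCCGGcggaactgcggg

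Of the 88 genes, 81 passed the filter on low counts in Mel92.1 and 82 in MP41. Those below it were the tissue-restricted isoforms of complex IV and copies. COX4I2, the lung isoform of subunit 4, had 1 count over the 18 libraries, COX7B2 had 4, COX8C 13, COX6B2 24 and COX7A1, the muscle isoform of subunit 7A, 34. ATP5L2 had 23, and ATP5EP2 with 153 passed in MP41 alone. The ubiquitous isoforms carried the expression of each pair. COX4I1 stood at 360.2 ± 49.5 CPM (SD, n = 3) in Mel92.1 and 147.7 ± 11.6 in MP41 with DMSO, and COX6A1 at 200.3 ± 22.7 and 122.1 ± 13.5. The muscle isoform COX6A2 stood at 0.80 ± 0.25 and 0.15 ± 0.06 CPM. COX6B1 was at 172.1 ± 28.5 and 62.3 ± 5.55 CPM, COX7A2 at 119.9 ± 17.6 and 70.7 ± 3.43, and COX7B at 71.3 ± 8.34 and 103.2 ± 7.65.

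Levels per kilobase of transcript were ranked among tested subunits with a matched transcript length, leaving out the copies, the read-through gene, COX7A2L, ATP5S and ATP5SL. The catalytic ATP synthase subunit ATP5B was the highest member of complex V in both lines, at a mean of 638.7 CPM per kilobase in Mel92.1 and 661.2 in MP41 with DMSO. COX8A led complex IV in Mel92.1 at 636.7 and COX7C led it in MP41 at 310.5 CPM per kilobase. UQCRH (427.8) and UQCRQ (270.1) led complex III in Mel92.1 and MP41, and NDUFB9 led complex I in both (381.3 and 548.0). Complex II was led by SDHA in Mel92.1 (95.9) and by SDHB in MP41 (101.8). At the low end, COX6A2 stood at 1.82 and 0.35 CPM per kilobase in Mel92.1 and MP41. The lowest subunits of the other complexes in this ranking (NDUFV3 in Mel92.1 and NDUFA9 in MP41, SDHC, UQCRB in Mel92.1 and UQCRFS1 in MP41, and ATP5E) have long annotated transcripts, 13566 bases for SDHC, so that their values per kilobase rest on the transcript chosen.

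With A366, most of these mRNAs were higher in MP41. Of the 82 tested, 55 rose, 1 fell and 78 had a fold change above 1, and the median log2 fold change was 0.38. Over all 14956 genes tested in MP41, 46.0% passed the same test, 22.5% as higher and 23.5% as lower, and the median was 0.02. The groups of libraries did not overlap for 63 members that were higher and 1 that was lower, where 31.4% of all genes tested were higher and 26.7% lower without overlap and 58.0% did not overlap in either direction. The median of the members over the 3 libraries was 0.52, 0.22 and 0.47 above the DMSO mean (log2), so that 1 library, the one labelled Mel92.1 A366 replicate 2, moved less. Ribosomal RNA also differed between these groups, at 3.31 to 5.10% of counts with DMSO and 5.93 to 10.96% with A366, and its part in the result was not tested.

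**Figure D1:**
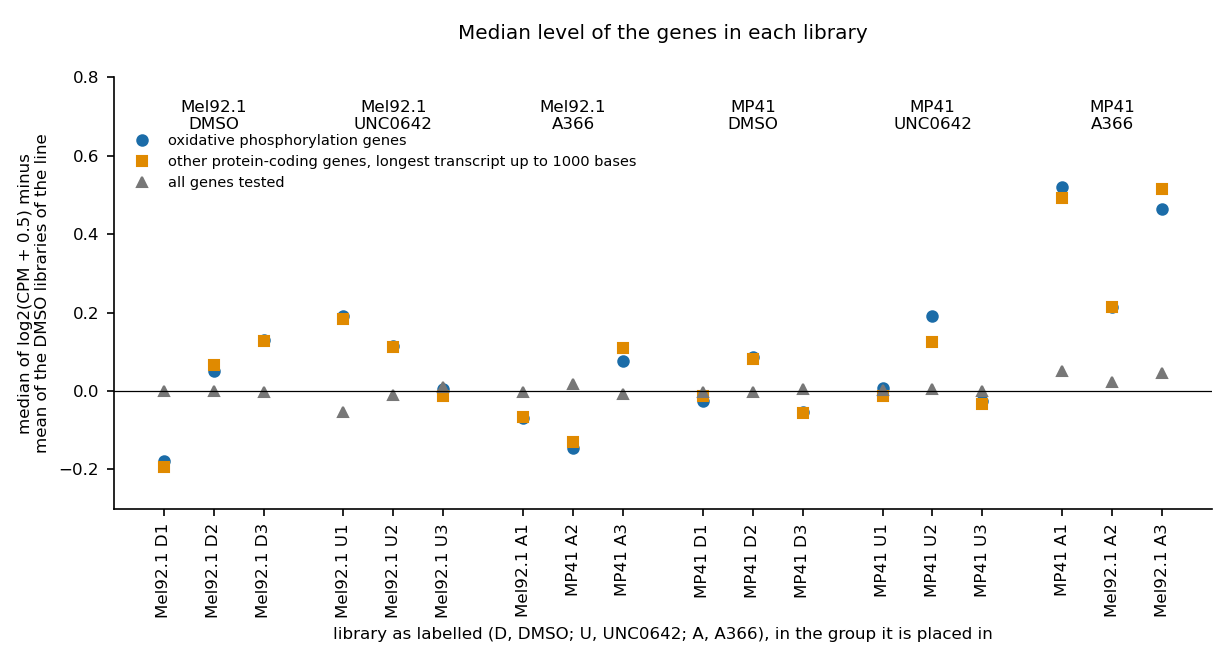
Median of the members in each of the 18 libraries, as the difference in log2 CPM from the mean of the DMSO libraries of the same line, beside the median of other genes with transcripts of at most 1000 bases. The 3 MP41 libraries with A366 stood at 0.22 to 0.52, above the others. In every library the members, which were of all lengths, lay within 0.066 of the short genes.

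Other short mRNAs rose in the same comparison. Of 307 other genes whose longest transcript was at most 1000 bases, 158 rose and 7 fell, with a median of 0.48. In each of the 18 libraries the median of the members differed from that of these short genes by -0.049 to 0.066. The members were not limited to that length, and their longest transcripts had a median of 1407 bases. Among genes of 612 to 4748 bases, the span that holds the central 80% of the members, 2730 of 8814 rose, 1286 fell and the median was 0.12. Cytosolic ribosomal proteins, which are also short, had 71 of 82 higher and 1 lower with a median of 0.37. They were not taken out of the sets of other genes above, so the sets can share genes. By the length of the RefSeq-matched transcript, members and other protein-coding genes had medians of 0.67 and 0.48 up to 600 bases, and of 0.48 and 0.46 from there to 1000 bases. Between 1000 and 2000 bases they were 0.39 and 0.30, and above 2000 bases 0.23 and -0.09.

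Across 30 bins of length, the median change of other protein-coding genes ran from 0.47 at a median length of 756.5 bases to -0.45 at 12450.5 bases. Of 79 members with a matched length, 53 lay above the median of their bin, with a median difference of 0.13. By complex, 27 of 36 were above it in complex I, 1 of 4 in complex II, 8 of 9 in complex III, 7 of 12 in complex IV and 10 of 18 in complex V. Across the members, the change had a Spearman correlation of -0.45 with length and 0.38 with GC content, as a description over 79 genes measured in the same libraries. With GC content and transcript length both in the fit as an offset, 32 members were higher and 3 lower, with a median of 0.21, and short genes of at most 1000 bases then had a median of 0.04.

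**Figure D2:**
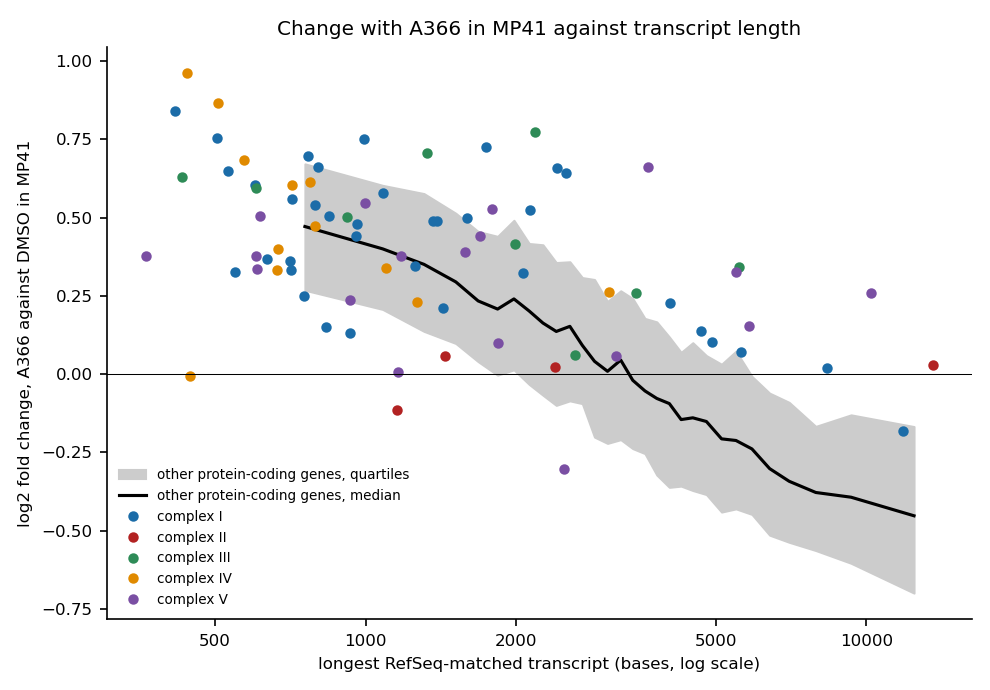
Log2 fold change with A366 in MP41 against transcript length (log axis) for the members, with the median and quartiles of other protein-coding genes in 30 bins of length. The line falls from 0.47 to -0.45, and 53 of the 79 members shown lie above it.

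Complex I gave the largest number of calls, with 27 of 37 higher and a median of 0.48. The 7 core subunits, which carry out electron transfer, had 5 higher and 1 lower, and 21 of 29 accessory subunits were higher. NDUFB1, an accessory subunit of the membrane arm (chr14:92116122-92121917, GRCh38), stood at 35.6, 38.4 and 29.4 CPM with DMSO and at 71.8, 57.2 and 59.7 with A366. All of its A366 libraries lay above all of its DMSO libraries, with a log2 fold change of 0.84 (SE 0.16, adjusted p = 0.00169). With the libraries as labelled, NDUFB1 was at 0.21 (adjusted p = 0.709). NDUFB2, of the same arm, was at 58.0, 68.1 and 53.1 CPM with DMSO and at 110.7, 80.3 and 116.5 with A366. It rose by 0.75 (SE 0.13, adjusted p = 0.000919), and its groups did not overlap either.

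NDUFA13, an accessory subunit also studied as GRIM-19, went from 124.2, 139.6 and 116.6 CPM to 242.7, 166.6 and 242.8, a log2 fold change of 0.75 (SE 0.15, adjusted p = 0.00221). NDUFS7, a core subunit that holds the last iron-sulfur cluster before ubiquinone, went from 38.8, 45.7 and 38.4 CPM to 73.3, 53.5 and 80.2. Its log2 fold change was 0.73 (SE 0.14, adjusted p = 0.0015). For both genes the lowest A366 library was still above the highest DMSO library.

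NDUFS1, the large core subunit with several iron-sulfur clusters (chr2:206114817-206159603), was the member that fell. It stood at 170.7, 173.7 and 179.7 CPM with DMSO and at 156.3, 161.1 and 152.4 with A366. The difference was small but the groups did not overlap, and the log2 fold change was -0.18 (SE 0.06, adjusted p = 0.0208). Its annotated transcript is 11819 bases long, and under the offset its log2 fold change was 0.28. With an offset for GC content alone it was -0.02 (adjusted p = 0.771). The fall did not pass without the filter on low counts (adjusted p = 0.055). It also did not pass without MP41 DMSO replicate 1, 2 or 3, MP41 A366 replicate 1 or Mel92.1 A366 replicate 3, each left out alone (adjusted p 0.0503 to 0.0916). NDUFA4 was at 155.1, 150.5 and 146.0 CPM with DMSO and at 238.6, 203.1 and 219.1 with A366, without overlap, a log2 fold change of 0.52 (SE 0.07, adjusted p = 0.000293).

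The 4 subunits of complex II, which links the citric acid cycle to the chain and is all nuclear, did not pass the test. SDHA, the flavoprotein, was at 229.1, 236.9 and 223.1 CPM with DMSO and at 244.9, 215.6 and 252.3 with A366 (log2 fold change 0.02, SE 0.07). SDHB, the iron-sulfur subunit, was at 112.9, 124.3 and 114.9 CPM and then at 114.5, 94.8 and 121.3 (log2 fold change -0.12, SE 0.10). In both cases the groups overlapped. The membrane anchors SDHC and SDHD had log2 fold changes of 0.03 (SE 0.07) and 0.06 (SE 0.06). The adjusted p of the 4 genes ran from 0.351 for SDHB to 0.811 for SDHA. Under the same offset, SDHB passed as lower (-0.47, adjusted p = 0.00037) and SDHC, whose annotated transcript is very long, as higher (0.49, adjusted p = 0.00093).

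In complex III, 8 of 10 were higher, counting the pseudogene UQCRBP1. All 5 of its small subunits rose, by 0.34 to 0.71 on the log2 scale. UQCR11, the smallest of them, went from 78.8, 90.7 and 76.8 CPM to 148.5, 110.7 and 150.1 (log2 fold change 0.71, SE 0.16, adjusted p = 0.00368). UQCRH, the hinge protein, went from 127.1, 144.3 and 126.0 CPM to 219.6, 180.4 and 211.1 (log2 fold change 0.60, SE 0.09, adjusted p = 0.000633). Neither gene had overlapping groups. Of the 3 larger subunits, UQCRC1 (0.42) and the Rieske protein UQCRFS1 (0.26) rose, and UQCRC2 was at 0.06 (adjusted p = 0.409).

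The pseudogene UQCRBP1 (chrX:56737242-56737577) had the largest log2 fold change of the members, at 4.67 (SE 0.93, adjusted p = 0.00207). It rested on low levels, at 0.93, 0.12 and 0.91 CPM with DMSO and at 17.8, 4.79 and 28.97 with A366, and reads of it and of its parent gene UQCRB can be exchanged between the rows. UQCRB was at 376.4, 419.6 and 369.9 CPM with DMSO and at 559.5, 460.9 and 483.0 with A366, a log2 fold change of 0.34 (SE 0.11, adjusted p = 0.0223). UQCRBP1 had an adjusted p of 0.0501 with the libraries as labelled.

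Complex IV had 9 of 12 tested genes higher, with a median of 0.44. COX8A, the ubiquitous form of its smallest subunit (chr11:63974607-63976543), stood at 60.6, 59.9 and 53.5 CPM with DMSO, at 61.9, 59.5 and 58.3 with UNC0642 and at 118.4, 87.1 and 117.5 with A366. The A366 libraries lay above the other 6, and the log2 fold change against DMSO was 0.87 (SE 0.11, adjusted p = 0.000265). Among the isoform pairs, COX4I1 (0.47), COX6A1 (0.68), COX6B1 (0.40), COX7A2 (0.61) and COX7A2L (0.26) all passed as higher. COX7B, also of an isoform pair, was at 99.2, 112.0 and 98.4 CPM with DMSO and at 113.4, 96.4 and 104.2 with A366. Its groups overlapped, and its log2 fold change was near 0 (SE 0.08, adjusted p = 0.968).

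In complex V, 11 of 19 were higher, with a median of 0.37. The 3 genes of the c ring, ATP5G1, ATP5G2 and ATP5G3, which encode the same mature protein, all rose, by 0.33 to 0.53 on the log2 scale. ATP5G1 went from 50.7, 52.1 and 51.1 CPM to 79.8, 63.0 and 79.7 (adjusted p = 0.000922), without overlap. In the head and stalk of the enzyme, ATP5D (0.55), ATP5E (0.66) and ATP5A1 (0.15) passed as higher. ATP5B was at 1217, 1230 and 1201 CPM with DMSO and at 1351, 1243 and 1381 with A366 (log2 fold change 0.10, SE 0.05, adjusted p = 0.116), and ATP5C1 was at 0.01 (adjusted p = 0.942). Of the peripheral and membrane subunits, 4 of 7 rose. ATP5SL rose by 0.44 (SE 0.09, adjusted p = 0.00178), and ATP5S was at 0.26 (adjusted p = 0.0656). The read-through gene ATP5J2-PTCD1 spread from 2.53 to 29.5 CPM over the 18 libraries, and its difference of -0.30 had an SE of 0.58.

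**Figure D3:**
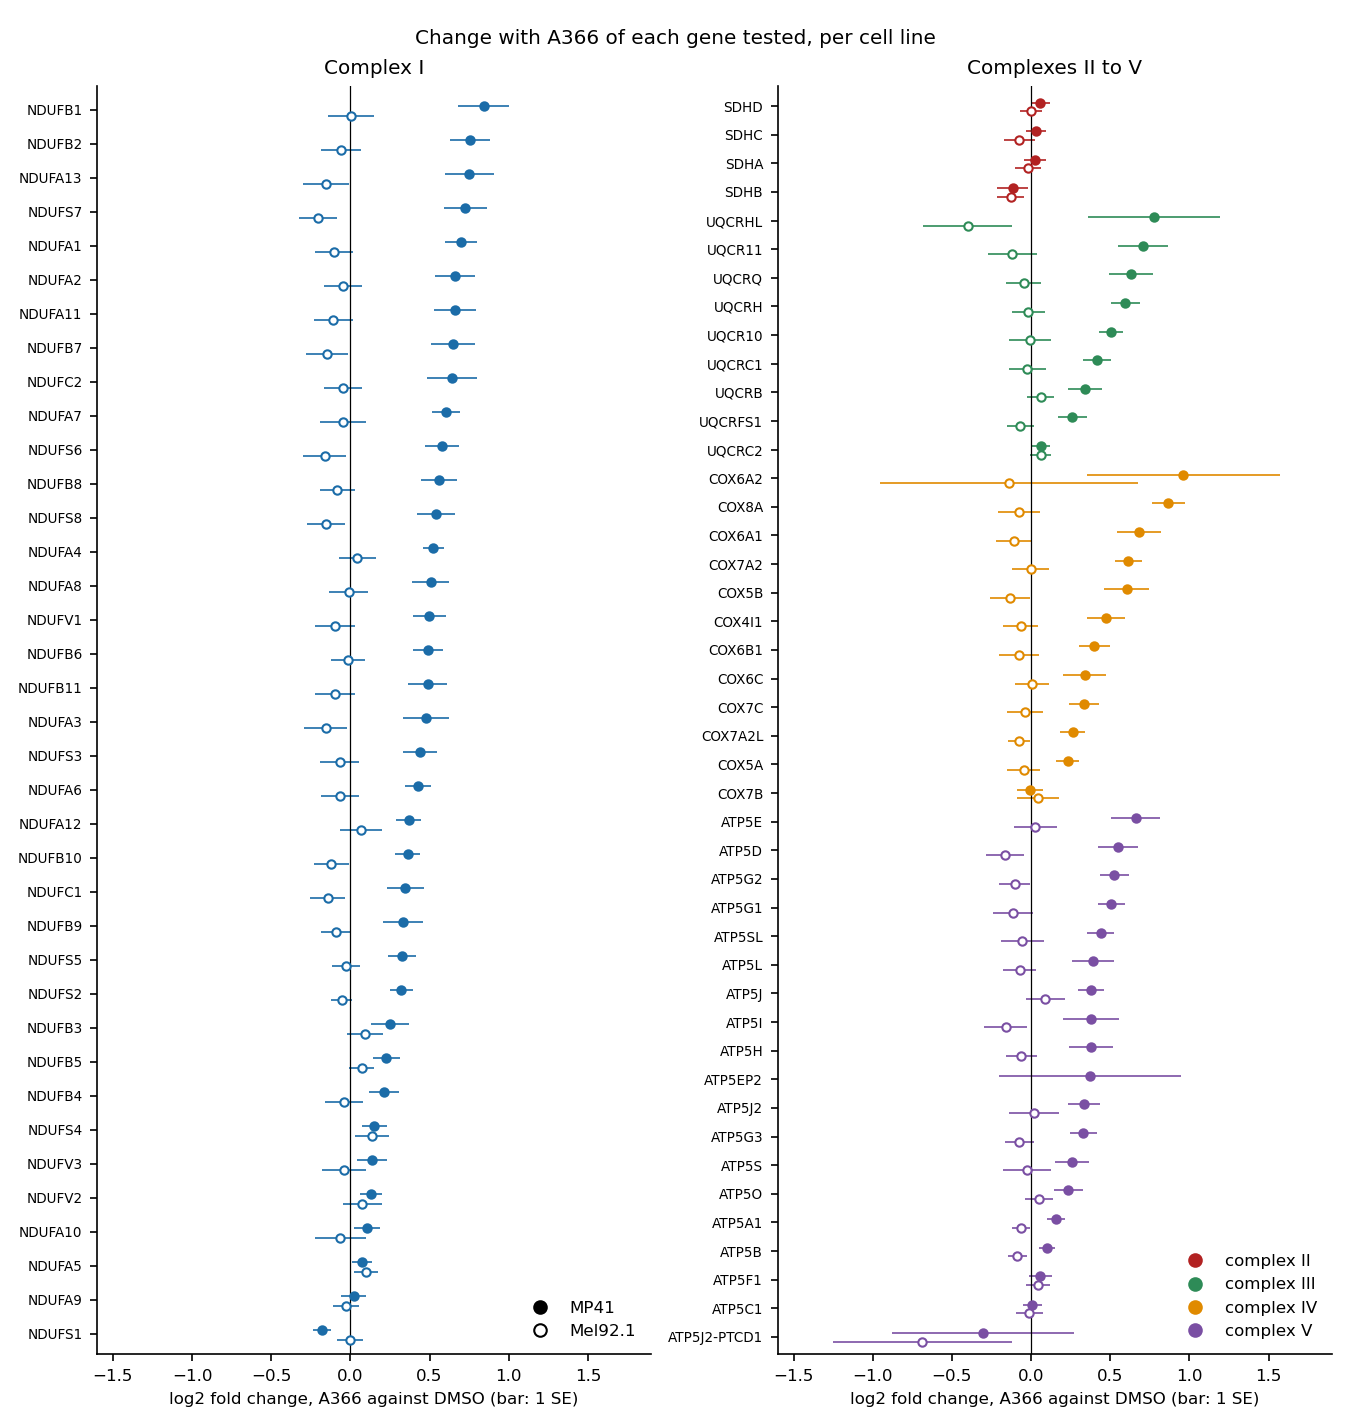
Log2 fold change with A366 against DMSO for each member tested in MP41, by complex, with bars of 1 SE. Filled points are MP41 and open points are Mel92.1, and calls are not marked. UQCRBP1, at 4.67 in MP41, is left out. In MP41, NDUFS1 is the call below 0, and the 4 genes of complex II lie between -0.12 and 0.06.

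Of 9 genes that are not core subunits of the complex they are listed under, copies or read-through genes, 8 were tested and 4 rose (UQCRBP1, NDUFA4, COX7A2L and ATP5SL). The 79 others gave 51 higher and 1 lower of 74 tested, with the same median of 0.38.

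With the libraries as labelled, the spread within groups was far larger (a biological coefficient of variation of 0.365 in MP41, against 0.109 after the exchange), and 34 members were higher and 1 lower, with a median of 0.35. Of those 34, 33 were among the 55. As labelled, the A366 group of MP41 held libraries that carry Mel92.1 transcripts. Calls of that fit, and any list that requires them, therefore also hold the difference between the lines. Without the 4 exchanged libraries, 56 were higher and 1 lower, with a median of 0.49, 53 of them among the 55. That fit held 1 A366 library per line, which was assumed to vary like the other groups. Under scaling by library size alone 47 were higher, and in DESeq2 58 were. Of the 55, 15 were higher in these fits and under the offset alike, namely ATP5G1, ATP5G2, ATP5G3, COX4I1, COX6A1, COX7A2, COX8A, NDUFA1, NDUFA4, NDUFB2, NDUFB6, NDUFC2, NDUFS7, UQCR10 and UQCRH.

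Members with and without the promoter letters are set side by side for A366 in MP41, and the difference between them was not tested. Of 13 with the NRF1 letters shown above, 8 rose with a median of 0.43, and of 52 tested without them, 38 rose with a median of 0.44. The ETS letters gave 15 of 19 with a median of 0.47, against 31 of 46 and 0.42. The YY1 letters gave 5 of 8 with a median of 0.40, against 41 of 57 and 0.47.

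Genes that build or feed the complexes were described beside the subunits by lists. Of 49 assembly factors, 22 were higher and 2 lower with A366 in MP41, with a median of 0.27. SCO2, a copper chaperone of complex IV, rose by 1.01 (SE 0.25, adjusted p = 0.00633) and C17orf89, a complex I assembly factor, by 0.74 (SE 0.19). LRPPRC, which stabilises mitochondrial mRNAs, fell by 0.48 (SE 0.08, adjusted p = 0.000922) and LYRM7, a complex III factor, fell by 0.23 (SE 0.08). Of 12 genes for cytochrome c and ubiquinone synthesis, 6 rose, led by ADCK4 (0.68) and COQ4 (0.51). Mitochondrial ribosomal proteins had 45 of 77 higher and 3 lower, with a median of 0.27.

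The regulators and the citric acid cycle had medians slightly below 0, and also calls in both directions. Of 12 tested regulators of mitochondrial biogenesis, 2 were higher and 5 lower, with a median of -0.07. ESRRA, a nuclear receptor of the respiratory programme, rose by 0.62 (SE 0.08, adjusted p = 0.00043), and POLRMT, the mitochondrial RNA polymerase, by 0.42. GABPA, the ETS factor, fell by 0.48 (SE 0.09, adjusted p = 0.0018), and the coactivator PPRC1 fell by 0.38. Of 13 genes of the citric acid cycle, 4 were higher and 1 lower, with a median of -0.02. IDH3G (0.27) and IDH3B (0.25), subunits of isocitrate dehydrogenase, were the highest, and citrate synthase CS fell by 0.25 (SE 0.06, adjusted p = 0.00735).

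UNC0642 was given at the same dose and for the same time. In MP41 no member passed edgeR's test against DMSO, where 0.241% of all genes did. The median was 0.07, with 65 of 82 above 0, and 1 member had an unadjusted p below 0.05 (SDHA, 0.17, SE 0.07). DESeq2 and limma voom called 0 members as well. The groups did not overlap for 9 members, all higher, where 9.46% of all genes were higher without overlap and 18.8% did not overlap. COX8A at 58.3 to 61.9 CPM overlapped its DMSO range, and the largest SE (1.00) was that of UQCRBP1, at 1.69, 0 and 3.18 CPM.

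The compounds were then compared directly. In MP41, 49 members were higher with A366 than with UNC0642 and 1 lower, with a median of 0.33, while 43.1% of all genes passed, 21.1% as higher and 22.0% as lower. The groups did not overlap for 34 members that were higher and 1 that was lower, against 26.8% and 24.8% of all genes and 51.6% in either direction. NDUFB2 (0.82, SE 0.13, adjusted p = 0.000594) and COX8A (0.82, SE 0.11, adjusted p = 0.000238) were the largest after UQCRBP1 (3.40), and NDUFB1 followed at 0.71. As labelled, NDUFB1 was at 0.08 (adjusted p = 0.896) and UQCRBP1 at 2.84 (adjusted p = 0.124). NDUFS1 was lower by a log2 fold change of -0.30 (SE 0.06, adjusted p = 0.00167), at 186.9, 194.9 and 188.8 CPM with UNC0642. Without the library labelled MP41 A366 replicate 1, 31 were higher and 1 lower. This comparison and that with DMSO share the A366 libraries.

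In Mel92.1, no member passed edgeR's test with either compound. Against DMSO, 0.688% of all genes passed with UNC0642 and 0.213% with A366. With UNC0642 the median of the members was 0.09, with 66 of 81 above 0 and 7 at an unadjusted p below 0.05, all higher. Ribosomal RNA took 10.1 to 32.8% of counts in these libraries, against 6.503 to 12.5% with DMSO, and its part in this shift was not tested. DESeq2 called NDUFS4, a complex I accessory subunit, at 0.38 (adjusted p = 0.237 in edgeR), and limma voom called 0. The groups did not overlap for 6 members, all higher, against 7.42% of all genes higher and 15.4% in either direction. With A366 the median was -0.06, with 63 of 81 below 0 and 0 at an unadjusted p below 0.05, and 3 did not overlap, 1 higher and 2 lower, against 8.52% and 7.23% of all genes and 15.7% in either direction. DESeq2 called 0 members there, while limma voom with sample weights called 30, all lower. The share of all genes that limma voom called is not given here, so that count is not read as a result about these genes.

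A366 and UNC0642 also gave 0 edgeR calls against each other in Mel92.1, where 0.165% of all genes passed. The median was -0.13, and 7 members had an unadjusted p below 0.05, all lower. The groups did not overlap for 13 members, all lower, where 6.88% of all genes were lower without overlap and 14.5% did not overlap. DESeq2 and limma voom each called the read-through gene ATP5J2-PTCD1 (-2.10, SE 0.58, adjusted p = 0.365 in edgeR). For COX8A in Mel92.1, the libraries were at 261.2, 336.0 and 371.2 CPM with DMSO, at 354.7, 342.0 and 290.1 with UNC0642 and at 293.7, 277.9 and 344.7 with A366. All 3 groups overlapped.

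The change with A366 was compared between the lines by an interaction over the 18 libraries, given as the value for Mel92.1 less the value for MP41. It was below 0 for 80 of 82 members and passed for 38, all lower, with a median of -0.51. Of all 15799 genes, 13.8% passed, 8.67% as lower, and the median was -0.03. Calls came from complex I (21), complex III (5), complex IV (6) and complex V (6), and complex II had none. Without the 9 genes that are not core subunits, copies or read-through genes, 34 of 74 tested passed. Short genes of at most 1000 bases had 64 lower and 2 higher of 342, with the same median of -0.51 as the members of all lengths.

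COX8A gave -0.97 (SE 0.18, adjusted p = 0.00467), from a change of -0.08 in Mel92.1 and 0.87 in MP41. NDUFS7 gave -0.96 (SE 0.20, adjusted p = 0.00774), from -0.20 and 0.73, and NDUFA13 gave -0.94 (SE 0.23, adjusted p = 0.0177), from -0.16 and 0.75. UQCRBP1 gave -4.09 (SE 1.18, adjusted p = 0.0313), with Mel92.1 at 2.68, 8.78 and 3.81 CPM with DMSO and 6.16, 6.34 and 10.6 with A366. The number of calls changed with the processing. With the offset 1 member passed (NDUFS7), with scaling by library size 5, and without the 4 exchanged libraries 2 (COX8A and NDUFS7). As labelled, 28 were lower and 6 higher. Leaving out 1 library gave 5 to 55. For UNC0642, no member passed the interaction in edgeR, where 0.601% of all genes did, the median was 0.00 and 2 members had an unadjusted p below 0.05. DESeq2 and limma voom called 0 there.

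Without any inhibitor, about the same share of these genes as of all genes differed between the lines. With DMSO, 41 members were higher in Mel92.1 and 16 lower, of 82, with a median log2 fold change of 0.26. Over all genes, 69.4% passed, 34.5% as higher and 34.8% as lower, and the median was -0.02. The groups did not overlap for 42 members that were higher and 16 that were lower, against 38.6% and 38.8% of all genes and 77.4% in either direction. With scaling by library size alone, which moved the median of all genes to -0.22, 26 were higher and 21 lower. Short genes of at most 1000 bases had a median of 0.34, and cytosolic ribosomal proteins one of 0.78. Ribosomal RNA took 6.503 to 12.5% of counts in Mel92.1 and 3.31 to 5.10% in MP41 with DMSO, without overlap, and its part in the difference was not tested.

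Complex IV stood furthest towards Mel92.1, with 9 of 12 higher, 2 lower and a median of 0.74. COX8A was at 261.2 to 371.2 CPM in Mel92.1 and at 53.5 to 60.6 in MP41, a log2 fold change of 2.48 (SE 0.14, adjusted p = 3.62e-11). COX4I1 (1.29) and COX6B1 (1.47) were higher as well, and the muscle isoform COX6A2 at 2.35 (SE 0.78, adjusted p = 0.0125) rested on levels below 1 CPM. COX7B (-0.53) and COX6C (-0.43) were lower in Mel92.1. The ATP5SL gene, whose product is now assigned to complex I assembly, was at 56.9, 66.1 and 68.3 CPM in Mel92.1 and at 16.1, 16.2 and 15.4 in MP41 (2.00, SE 0.12, adjusted p = 1.18e-10).

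Complex I had 18 higher and 9 lower, complex III 5 and 1, complex V 9 and 2, and complex II 0 and 2. In complex III, 1 of 3 core and 2 of 5 small subunits were higher, and the rest were UQCRBP1 and UQCRHL. The calls of complex V included ATP5SL and the pseudogene ATP5EP2. Without the 9 genes that are not core subunits, copies or read-through genes, 36 were higher and 15 lower of 74 tested. NDUFV2, an iron-sulfur subunit of the NADH-binding module, was at 80.7, 95.8 and 96.0 CPM in Mel92.1 and at 237.2, 235.5 and 230.0 in MP41, without overlap (-1.37, SE 0.10, adjusted p = 1.99e-09). SDHD was at 61.4, 62.4 and 63.9 CPM in Mel92.1 and at 131.8, 140.6 and 137.5 in MP41 (-1.13, SE 0.06, adjusted p = 2.63e-11). UQCRB was lower by a log2 fold change of -1.08 (SE 0.11), and the pseudogene ATP5EP2 by -1.79 (SE 0.69) at levels below 0.5 CPM. SDHA, in contrast, was at 223.4 to 233.5 CPM in Mel92.1 and at 223.1 to 236.9 in MP41, with overlapping groups.

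**Figure D4:**
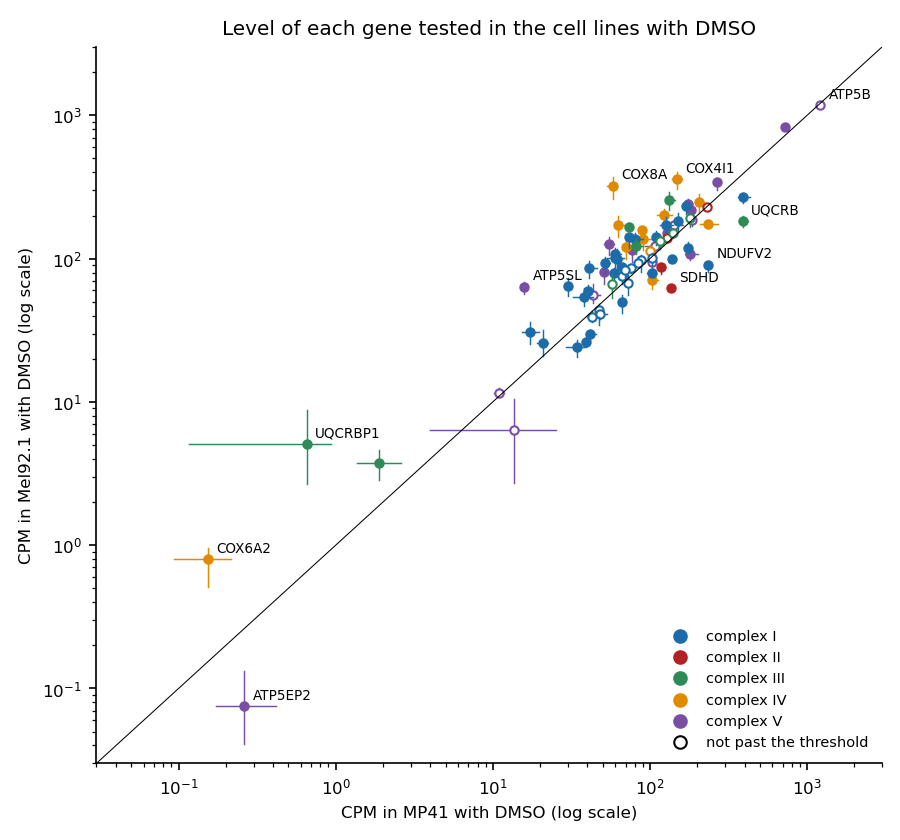
Mean CPM of each member with DMSO in MP41 (horizontal) and Mel92.1 (vertical), both on log axes, coloured by complex. COX8A and ATP5SL lie above the line of equal levels, by 2.48 and 2.00 on the log2 scale, and NDUFV2 and SDHD lie below it, by 1.37 and 1.13.

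By chromosome, the members went with the other genes in some cases and against them in others. On chromosome 19, 10 of 11 members were higher in Mel92.1, with a median of 0.86, and the other genes of that chromosome had a median of 0.66 with 56.6% higher. On chromosome 16, 3 of 4 were higher (median 1.11, against 0.77 for other genes). On chromosome 8, all 3 (COX6C, NDUFB9 and UQCRB) were lower, with a median of -0.52, where the other genes had a median of -0.11. Members and other genes had medians of opposite sign on most chromosomes, some of which held only 1 or 2 members. Among them were chromosome 2 (0.05 and -0.42), chromosome 7 (0.14 and -0.33), chromosome 12 (0.41 and -0.12) and chromosome 22 (-0.11 and 0.22). Copy number was not measured in these files, and its part in the differences was not tested.

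Among the regulators, the levels differed in both directions between the lines. The coactivator PPARGC1A was lower in Mel92.1, with a log2 fold change of -3.78 (SE 0.16, adjusted p = 1.25e-12), and ESRRA was higher, by 2.59 (SE 0.09, adjusted p = 5.24e-14). TFAM, which packages mitochondrial DNA, was higher by 0.92, and GABPA was lower, at -0.84. Of the assembly factors, 15 were higher and 11 lower. SDHAF1 (2.11) and UQCC3 (1.93) were the highest, and COX20 (-2.80) and SCO2 (-1.73) the lowest. Mitochondrial ribosomal proteins had 36 of 77 higher and 17 lower, with a median of 0.14.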

How the data were processed

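The authors deposited 1 table of expected counts per gene from RSEM, estimated from the alignments and not normalized for library size, for 18 libraries. The study's methods give poly(A)-selected, strand-specific RNA, but the sources differ on the selection. The submitters' processing notes name Bowtie2 2.1.0, RSEM 1.2.15 and hg38. The annotation behind the table is not given in the sources used here. The study's methods describe another pipeline (Cufflinks FPKM, a mouse build). Values that were not whole numbers made up 5.85 to 13.4% per library, and all columns were used.

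Groups followed the labels except for the 4 exchanged A366 libraries. Counts were rounded and fitted with edgeR 4.0.16 in R 4.3.3 (filterByExpr, TMM factors, glmQLFit, glmQLFTest) over all genes, adjusting p-values by Benjamini-Hochberg, with a threshold of 0.05. The 9 libraries of a line were fitted together, and differences between lines in 1 fit of the 18. CPM values use TMM factors, and differences per library added 0.5 to the CPM before log2. Members and lists (chosen with earlier results of these data known) were described by counts and medians beside all genes. Of the symbols, 23899 matched the GENCODE annotation of GRCh38 by name, 735 by a RefSeq synonym and 1841 not at all. All 88 members matched, and 85 had a RefSeq-matched transcript length.

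The genes named with values were, in each comparison, up to 4 with the largest rise and fall past the threshold, the SDH genes, the isoform pairs of complex IV, the genes that are not subunits, the highest and lowest level in each complex, and up to 2 each way of the other lists. Further members were named after their values were seen. Alternatives were DESeq2 1.42.0, limma 3.58.1 voom, other scaling, filters and offsets, a replicate block, and leaving out libraries. The fit was tested on simulated counts. Tables and plots were made with Python 3.11.15, numpy 2.4.6, pandas 2.3.3 and matplotlib 3.10.9.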

Additional observations from a re-analysis of the deposited data

Results flagged for a closer look

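The change with A366 differed between the lines for 38 members by the test of the difference itself, all with a lower change in Mel92.1 than in MP41. Over all 15799 genes, 13.8% passed that test and 8.67% were lower. Other genes of at most 1000 bases had the same median as the members of all lengths, -0.51. Fits with an offset gave 0 calls for GC content alone and 1 for GC content with length. The largest differences (Mel92.1 minus MP41, log2) were -4.09 for the pseudogene UQCRBP1, -0.97 for COX8A, -0.96 for NDUFS7 and -0.94 for NDUFA13. Ribosomal RNA, transcript length and the placement of the 4 exchanged libraries moved with this comparison, and the part of the first was not tested.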

How the results depend on the processing

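The counts of members called rest on 3 libraries per group, on lengths taken from annotation rather than from the transcripts in these cells, and on the exchange of 4 libraries. Without 1 library each, the count for A366 against DMSO in MP41 ran from 42 to 66, for A366 against UNC0642 in MP41 from 32 to 62, for the lines with DMSO from 50 to 62 and for the difference between the lines with A366 from 5 to 55. The last was 5 without the libraries labelled Mel92.1 DMSO replicate 3, Mel92.1 A366 replicate 3 or MP41 A366 replicate 2, 7 without MP41 A366 replicate 1, 9 without Mel92.1 DMSO replicate 2, 11 without Mel92.1 A366 replicate 1 and 13 without MP41 DMSO replicate 1 or 3. The other comparisons stayed at 0. As labelled, the counts for MP41 were 35 against DMSO and 27 against UNC0642. With a fold of at least 1.5 as a further condition, the counts were 19, 9 and, for the lines, 28. For A366 against DMSO in MP41 an offset for GC content with length gave 35. The difference between the lines with A366 gave 0 with an offset for GC content, 1 with GC content and length, 2 without the exchanged libraries, 5 with library size alone and 75 with limma voom. In Mel92.1, limma voom called 30 for A366 against DMSO, and DESeq2 called 1 for UNC0642 against DMSO. For A366 against UNC0642 in Mel92.1, DESeq2 and limma voom called 1 each. Shares of all genes called are not given for the alternative fits, so their counts are not read as results about the members. NDUFS1 reversed under that offset, to 0.28 against DMSO and 0.15 against UNC0642, and with the block as well to 0.27 and 0.14. The median of the members with A366 in MP41 minus that of short genes was 0.26 with the 612 to 4748 base span and -0.093 with genes of at most 1000 bases. The cause of these changes was not tested, and each left-out fit also held fewer libraries.

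Deviations of libraries with the same replicate number from their group means correlated at -0.20 to 0.23 within a line. Libraries with different numbers were not set beside them, so these values cannot show whether the cultures were paired. With a replicate block, 55 members were called for A366 against DMSO in MP41, 48 against UNC0642, 55 between the lines and 30 for the difference between the lines with A366. The block together with that offset gave 32, 30, 52 and 0.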
